A study of Homo sapiens with 71 samples.

Results

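The inflammatory chemokines CXCL1, CXCL2, CXCL3, CXCL5, CXCL8 and CCL20 and the NF-kB target genes BIRC3, NFKBIA and ICAM1 were examined in HepG2 cells exposed to surface water. These 9 genes were taken by symbol from 31012 entries of the deposited table, and 7 of them passed the filter on low counts, among 6943 features tested. CXCL3 and CXCL5 did not pass. HepG2 is an established line of human liver tumour cells that still makes many liver proteins. All dishes were seeded from the same pooled cells, cultured for 72 hours and then kept for 48 hours in medium containing 75% water that had passed a 0.7 µm filter. The water was a single grab sample from 1 of 16 sites on Great Lakes tributaries, known here by their 4-letter codes BRWI, CRMI, CROH, FRWI, GRMI, GRNY, IHIN, JRMI, LRMN, MAWI, MIWI, MROH, ORNY, RRMI, SRMI and VROH, with 4 libraries per site and 3 for MIWI. The controls were 8 libraries from dishes that received purified water in place of site water. All dishes of a site share 1 water sample and all dishes share 1 cell pool, so that every p below measures the spread between dishes. RNA was measured with TempO-Seq, a targeted assay that joins neighbouring probes bound to an RNA and sequences the joined product.

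NF-kB is a family of transcription factors that inhibitor proteins such as IκBα, the product of NFKBIA, hold in the cytoplasm until a signal from a cytokine or microbial receptor releases them. Released NF-kB switches on chemokines, adhesion molecules and survival factors, and also NFKBIA itself, which closes a feedback loop. CXC chemokines of the group studied here draw neutrophils through the receptors CXCR1 and CXCR2, while CCL20 draws lymphocytes and dendritic cells that carry CCR6. Hepatoma cells are known to make several of these factors when given interleukin 1 or tumour necrosis factor.

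The 9 genes did not move as a block. CCL20 was higher than in controls at 6 of the 16 sites, by 0.38 to 0.65 on the log2 scale, and differed strongly between sites. CXCL8 was higher at CRMI and CXCL2 was lower at LRMN, while BIRC3 was lower at CRMI and NFKBIA was higher at CROH. CXCL1 and ICAM1 passed at no site. In edgeR's quasi-likelihood test, with a call meaning a Benjamini-Hochberg adjusted p under 0.05 over all 6943 features, 8 of 112 gene-site tests of the 7 genes were called higher (7.14%), where the percentage over all features was 0.941. There were 2 called lower (1.79%), where it was 0.988 over all features. Of the 8 called higher, 6 were of CCL20. With the shallow library VROH 2 also fitted, 1 was called higher (0.893%, with 0.436% over all features) and 2 lower (1.79%, with 0.447%). The 16 comparisons share the 8 controls.

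**Figure D1:**
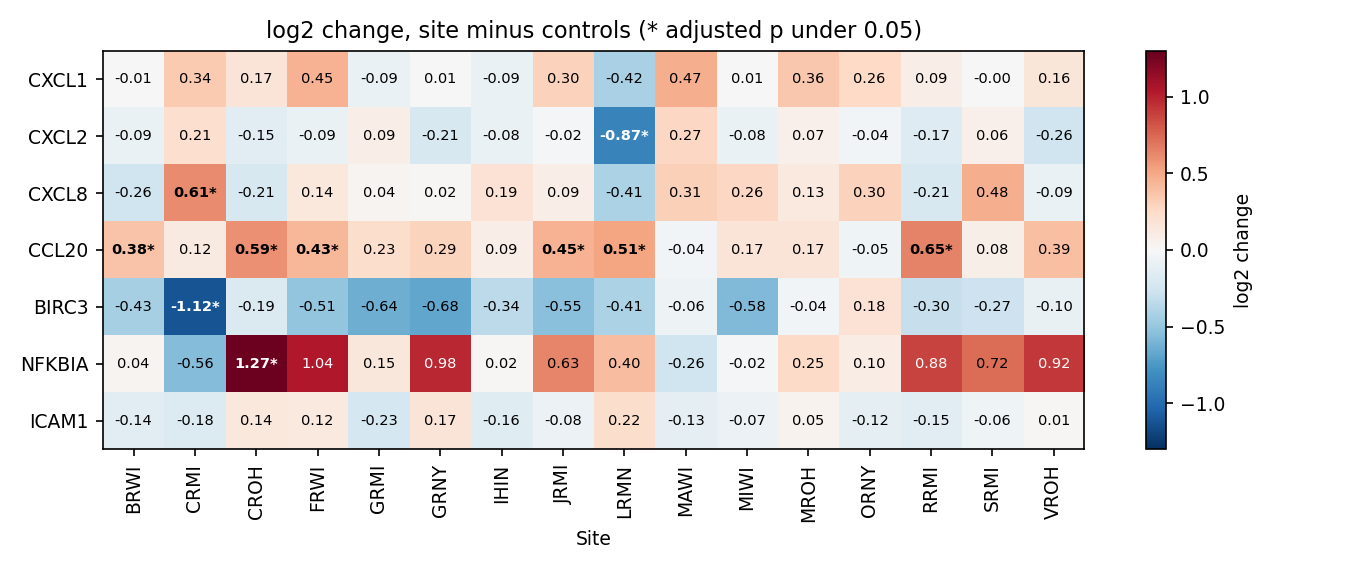
Log2 change of the 7 tested genes (rows) at each of the 16 sites (columns), site minus controls, from the fit to 70 libraries; red is higher and blue is lower than controls, and an asterisk marks an adjusted p under 0.05. CCL20 holds 6 of the 10 marked cells, and NFKBIA and BIRC3 hold the largest changes in either direction, 1.27 at CROH and -1.12 at CRMI.

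Total counts in the entries held were 2912835 to 9893173 in 62 site libraries and 8183185 to 14519869 in the 8 control libraries. The library VROH 2 had 8840 counts and was left out of the 70 libraries fitted. A further 2 libraries, CRMI 1 and SRMI 3, differed widely from the others of their site: in CRMI 1, 525 of 3670 features were at least 3 log2 units lower than in the other CRMI libraries, and in SRMI 3 it was 96. They stayed in the fit. Without them more features were called, and results that changed without them are given below for the 9 genes and, by their counts and main examples, for the pathway genes. All 10 hepatocyte and HepG2 markers were detected, with summed levels of 119892 to 222370 CPM (counts scaled to a library total of 1000000) in site libraries and 138554 to 195041 CPM in control libraries. PTPRC, which marks leukocytes, and KDR, which marks endothelium, had 0 counts, but the immune list as a whole reached 551 to 3869 CPM at the sites and 1476 to 2066 CPM in controls, almost wholly through LYZ, which was called at 7 sites; its part in the results was not tested. In such bulk samples, fewer cells that express a gene and less RNA per cell cannot be told apart.

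To show what the 9 genes share besides their function, the stretch of 250 bases before to 50 bases after each start site (RefSeq, GRCh38.p14) was searched on both strands for GGNNNTTCC, a core of the NF-kB binding motif. All 9 of 9 promoters held it, against 20.1% of 35116 RefSeq promoters. The genes were chosen as NF-kB targets, so this is a description. To show this likeness, 1 match of each gene is printed, 5′ to 3′ on the gene's strand, with the match in capitals.
CXCL1: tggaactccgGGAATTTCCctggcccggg
CXCL2: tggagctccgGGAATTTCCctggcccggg
CXCL3: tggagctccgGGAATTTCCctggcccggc
CXCL5: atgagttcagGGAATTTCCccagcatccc
CXCL8: tgcaaatcgtGGAATTTCCtctgacataa
CCL20: tgatcaatggGGAAAACCCcatgtggcaa
BIRC3: tttgggtcatGGAAATCCCcgagtgggtt
NFKBIA: tgactggcttGGAAATTCCccgagcctga
ICAM1: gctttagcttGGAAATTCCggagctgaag

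The 5 CXC chemokines carried the same letters, GGAATTTCC, at 77 to 91 bases before the start. Their stretches lie at chr4:73869305-73869333 (plus strand) for CXCL1, chr4:74099254-74099282 (minus) for CXCL2, chr4:74038749-74038777 (minus) for CXCL3, chr4:73998749-73998777 (minus) for CXCL5 and chr4:73740468-73740496 (plus) for CXCL8. In CCL20 (chr2:227813753-227813781, plus) and BIRC3 (chr11:102317275-102317303, plus) the match read on the opposite strand. NFKBIA (chr14:35404812-35404840, minus) and ICAM1 (chr19:10270924-10270952, plus) carried GGAAATTCC, which is GGAATTTCC when read on the opposite strand. CXCL1, CXCL2 and CXCL3 held a second match 53 bases before the start, and NFKBIA held one 242 bases before it.

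The AP-1 motif TGANTCA was found in 1 of the 9 promoters, that of CXCL8, and in 7.71% of all promoters. It lies 137 bases before the start (chr4:73740422-73740448, plus strand).
CXCL8, AP-1 match: ggaagtgtgaTGACTCAggtttgccct

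By annotation (GENCODE release 29, GRCh38), the 5 CXC chemokine genes lie close together on chromosome 4: CXCL8 (ENSG00000169429.10, 73740506 to 73743716), CXCL1 (ENSG00000163739.4, 73869393 to 73871242), CXCL5 (ENSG00000163735.6, 73995642 to 73998779), CXCL3 (ENSG00000163734.4, 74036589 to 74038807) and CXCL2 (ENSG00000081041.8, 74097035 to 74099293). The other genes lie on chromosomes of their own: CCL20 (ENSG00000115009.12, 2, 227805739 to 227817564), BIRC3 (ENSG00000023445.13, 11, 102317450 to 102339403), NFKBIA (ENSG00000100906.10, 14, 35401511 to 35404749) and ICAM1 (ENSG00000090339.8, 19, 10270835 to 10286615). Aligned transcripts of CXCL1 and CXCL2 were 90.5% identical, with a longest shared run of 77 bases, and those of CXCL2 and CXCL3 were 83.3% identical, with a shared run of 97 bases. The sources used here give no probe positions, so values of CXCL1, CXCL2 and CXCL3 carry the doubt that reads could have been assigned to the wrong copy.

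CCL20 was the gene with the most calls. At RRMI its 4 libraries held 6507, 6663, 6830 and 6967 CPM, and at CROH they held 6227, 6489, 6529 and 6711 CPM, against a lowest of 3659, a median of 4402 and a highest of 4856 CPM in the 8 controls. LRMN held 5749, 5797, 6422 and 6583 CPM. At each of these sites every library lay above every control library, and the same was true of BRWI, FRWI, GRNY and JRMI and of the 3 VROH libraries fitted. Means were 6742 ± 200 CPM at RRMI, 6489 ± 200 at CROH and 6138 ± 427 at LRMN (SD, n = 4 each), against 4306 ± 369 CPM in controls (SD, n = 8).

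The log2 change of CCL20 was 0.65 ± 0.09 at RRMI (SE; edgeR adjusted p = 2.21e-06), 0.59 ± 0.09 at CROH (5.13e-05) and 0.51 ± 0.09 at LRMN (1.41e-04). It was 0.45 ± 0.09 at JRMI (0.00748), 0.43 ± 0.09 at FRWI (0.0209) and 0.38 ± 0.09 at BRWI (0.0390). Over all features the percentage called in either direction was 1.74 at RRMI, 4.16 at CROH, 8.64 at LRMN, 1.09 at JRMI, 0.331 at FRWI and 0.475 at BRWI. At FRWI and BRWI, CCL20 was 1 of 23 and 1 of 33 called features. VROH, with a log2 value of 0.39, and GRNY, with 0.29 (adjusted p = 0.125), did not pass.

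The site means of CCL20 ran from that of RRMI down to 4193 ± 941 CPM at MAWI and 4153 ± 988 CPM at ORNY (SD, n = 4 each), the only sites below the control mean. Of 16 neighbouring pairs in the order of the 17 groups, 14 were closer than the larger of their SDs, the exceptions being RRMI over CROH and BRWI over GRNY. MAWI and ORNY had the widest spread, with libraries from 3108 to 5215 CPM and from 3290 to 5319 CPM. In the order of levels, GRNY, GRMI, MROH, MIWI, CRMI, IHIN and SRMI followed BRWI, with means from 5249 down to 4544 CPM.

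**Figure D2:**
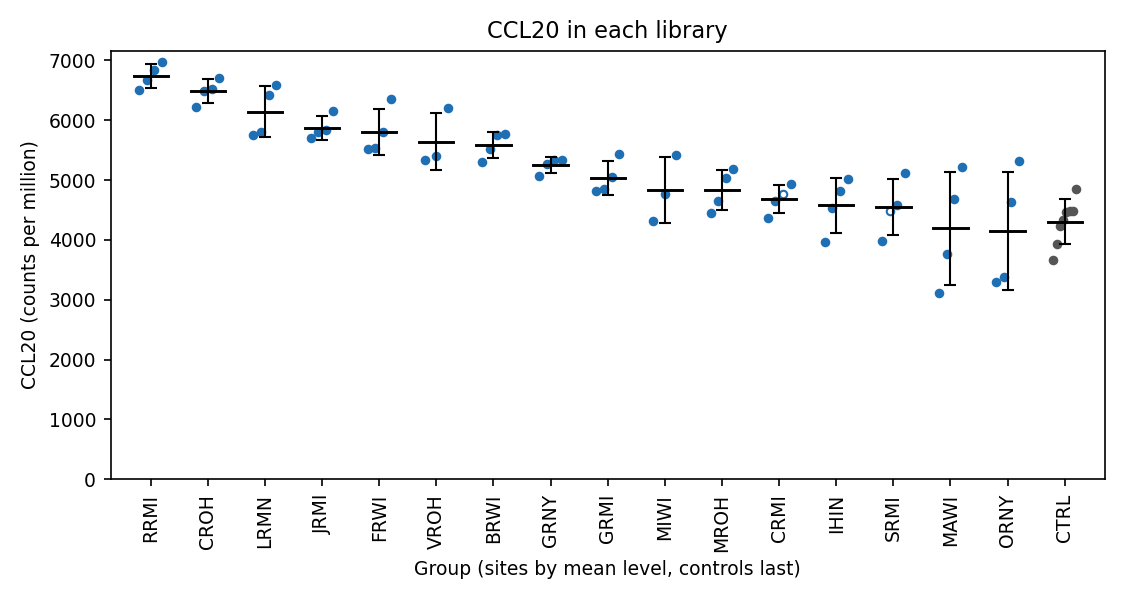
CCL20 in CPM in each library, with sites ordered by their mean and the 8 controls at the right; bars give the mean and SD, and open circles are the libraries CRMI 1 and SRMI 3. Libraries of the sites from RRMI to GRNY lie above the highest control at 4856 CPM, while MAWI and ORNY span the control range and beyond.

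As the mean of the 16 sites, CCL20 was higher by 0.28 ± 0.06 on the log2 scale (edgeR adjusted p = 0.0210), with 14 of 16 site means above the controls. It was the 1 call among the 7 genes there, where 7 of 6943 features were called (0.101%). This call was lost when CTRL 3, CTRL 5, CTRL 6 or CTRL 8 was left out, where the highest adjusted p was 0.138, and log2 values were 0.25 to 0.30 over all libraries left out in turn. It was also lost with no filter on low counts (adjusted p = 0.137). Between the 16 sites CCL20 had an F of 7.87 (adjusted p = 9.83e-08).

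The calls of CCL20 rest on leaving out VROH 2. That library held 2 CCL20 counts, or 225 CPM of its unadjusted total, with an exact 95% interval of 27.3 to 814, against 5331 to 6195 CPM in the other VROH libraries. With all 71 libraries in the fit the log2 changes stayed close, 0.66 at RRMI and 0.61 at CROH, but the adjusted p was 0.465 and 0.267, no site was called, and the F between sites was 0.974 (adjusted p = 0.670). In that fit 1 gene-site test was called higher and 2 lower among the 7 genes, where the percentages over all features were 0.436 and 0.447. Between sites it called 3 genes, where 29.8% of all features were called, and at the mean of sites edgeR called 0 genes, with 1 at an unadjusted p under 0.05 and 0.0576% of all features called.

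Among the CCL20 calls, those at CROH, JRMI, LRMN and RRMI held when each library was left out in turn. The call at BRWI was lost in 7 of 12 such fits, where the highest adjusted p was 0.189, and that at FRWI in 4 of 12, where it was 0.112. Both were lost with no filter on low counts (adjusted p = 0.259 and 0.119), and BRWI also with library totals alone as scaling (0.129). That scaling moved the median of all features by -0.12 at LRMN and by less than 0.1 at the other sites, and there CCL20 was 0.39 higher (adjusted p = 0.00269). CCR6, which encodes the receptor of CCL20, had 73.1 ± 6.44 CPM in controls (SD, n = 8), and its log2 values of -0.18 at MAWI to 0.20 at RRMI did not pass between sites (F = 0.973, adjusted p = 0.627).

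CXCL8, the neutrophil attractant interleukin 8, ordered the sites nearly the other way round. At CRMI its libraries held 33.7, 38.2, 38.7 and 66.6 CPM, against a lowest of 23.7, a median of 30.2 and a highest of 34.0 CPM in controls. SRMI held 34.8, 34.9, 38.8 and 54.5 CPM. All 4 SRMI libraries and 3 of the 4 CRMI libraries lay above every control, as did the 3 MIWI libraries at 34.2, 34.6 and 36.4 CPM.

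CXCL8 averaged 44.3 ± 15.0 CPM at CRMI (SD, n = 4) and 29.2 ± 3.97 CPM in controls (SD, n = 8), a log2 change of 0.61 ± 0.15 (SE; edgeR adjusted p = 0.00564). The highest of the CRMI values was that of CRMI 1. Without that library the log2 change was 0.34, with an adjusted p of 0.180 when it alone was left out, so the call rests on it. It was also lost in a fit of CRMI and the controls alone (adjusted p = 0.0867). SRMI, at 40.8 ± 9.33 CPM, missed the threshold with a log2 value of 0.48 ± 0.15 (adjusted p = 0.0551).

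The lowest CXCL8 values were those of LRMN, at 18.8, 19.6, 24.4 and 25.2 CPM. Their mean was 22.0 ± 3.26 CPM, a log2 value of -0.41 that did not pass (adjusted p = 0.0831). It passed without CRMI 1 and SRMI 3 (-0.41, adjusted p = 0.0336). Between sites CXCL8 had an F of 4.98 (adjusted p = 4.14e-05), and this call held with each of the 70 libraries left out in turn, with an F of 4.38 to 5.41. In 15 of 16 neighbouring pairs of the order the means were closer than the larger SD.

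CXCL2, a neutrophil chemokine of the same cluster, was low at LRMN. Its 4 LRMN libraries held 6.43, 6.46, 8.08 and 9.66 CPM, from 36 to 49 counts each, against a lowest of 10.5, a median of 12.6 and a highest of 18.1 CPM in controls. All 4 lay below every control library. The means were 7.66 ± 1.54 CPM at LRMN (SD, n = 4) and 13.9 ± 2.83 CPM in controls (SD, n = 8), a log2 change of -0.87 ± 0.18 (SE; edgeR adjusted p = 7.24e-04). The call held with each library left out in turn, with log2 values of -0.99 to -0.79, and also with all 71 libraries.

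CXCL2 had its highest mean at MAWI, with a median library of 16.3 and a highest of 24.4 CPM. Those libraries overlapped the controls, and the log2 value of 0.27 did not pass. Between sites CXCL2 had an F of 2.96 (adjusted p = 0.00655), a call lost without LRMN 4 (F = 2.17, adjusted p = 0.0514).

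CXCL1, the close relative of CXCL2, also had its lowest mean at LRMN, 7.21 ± 1.13 CPM (SD, n = 4), and its highest at MAWI, 13.5 ± 2.83 CPM, with 9.60 ± 1.96 CPM in controls (SD, n = 8). Only 2 of the 4 LRMN libraries lay below every control, and 3 of the 4 MAWI libraries lay above every control. No site was called, and the F between sites of 2.05 did not pass (adjusted p = 0.0657). All 16 neighbouring pairs in its order were closer than the larger SD. CXCL1 and CXCL2 libraries of a group deviated together, with a Pearson r of 0.55 over 70 libraries after the group means were removed, but the doubt about their probes touches this value.

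CXCL3 and CXCL5 were near the limit of detection. CXCL3 had 3 counts in 62 site libraries and 1 count in 8 control libraries, or 0.00803 CPM (exact Poisson 95% interval 0.00166 to 0.0235) and 0.0124 CPM (3.14e-04 to 0.0691). CXCL5 had 23 counts in 18 of 62 site libraries and 3 counts in 2 of 8 control libraries. These levels, like those of CXCL3, are relative to unadjusted totals, and for CXCL5 they were 0.0616 CPM (0.0390 to 0.0924) at the sites and 0.0372 (0.00768 to 0.109) in controls, intervals that overlap. No difference was detectable for either gene at this depth. These intervals cover counting error of the pooled counts only, not the spread between libraries, and the reads carry no molecular identifiers.

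NFKBIA, which encodes the inhibitor IκBα, had low counts and the widest spread. Its CROH libraries held 2.89, 4.74, 4.75 and 9.68 CPM, from 16 to 71 counts, against a lowest of 1.46, a median of 2.21 and a highest of 3.39 CPM in controls, so that 3 of the 4 lay above every control. The means were 5.51 ± 2.91 CPM at CROH (SD, n = 4) and 2.31 ± 0.788 CPM in controls (SD, n = 8), a log2 change of 1.27 ± 0.38 (SE; edgeR adjusted p = 0.0415). This call was lost in 8 of 12 fits that left out a CROH or control library, and without CROH 3 the log2 change was 0.83 (adjusted p = 0.412). It also missed the threshold with all 71 libraries (0.0533), with no filter on low counts (0.0661) and with library totals alone (0.0502).

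FRWI, GRNY, VROH and RRMI had NFKBIA log2 values of 1.04, 0.98, 0.92 and 0.88 that did not pass. Their mean levels were 4.69, 4.64, 4.39 and 4.30 CPM. GRNY held values from 1.32 to 10.2 CPM, on both sides of the control range. In 6 of the 17 groups the SD of NFKBIA was over 0.5 times the mean, which was so for no other tested gene except BIRC3 in 1 group. The lowest mean was that of CRMI, 1.57 ± 1.09 CPM, from 29 counts in 4 libraries. The F between sites was 2.18 (adjusted p = 0.0474), and the call was lost in 34 of 70 fits with a library left out, with no filter (0.0615) and with library totals alone (0.0818).

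BIRC3, which encodes the apoptosis inhibitor cIAP2, had a mean below the controls at 15 of 16 sites. Its CRMI libraries held 1.46, 8.46, 10.8 and 13.1 CPM, against a lowest of 12.9, a median of 16.5 and a highest of 24.5 CPM in controls, and the lowest of them was CRMI 1. The log2 change at CRMI was -1.12 ± 0.28 (SE; edgeR adjusted p = 0.00772), and without CRMI 1 it was -0.70 (adjusted p = 0.0740). The CRMI call thus rests on that library, and it was also lost in a fit of CRMI and the controls alone (adjusted p = 0.139).

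JRMI was the site at which all 4 BIRC3 libraries, at 10.7, 12.4, 12.6 and 12.6 CPM, lay below every control, but its log2 value of -0.55 did not pass. GRNY ranged from 5.66 to 16.1 CPM, with a log2 value of -0.68 (adjusted p = 0.162) that passed without CRMI 1 and SRMI 3 (adjusted p = 0.0300). ORNY, at 19.9 ± 6.57 CPM, was the site above the control mean of 17.6 ± 3.83 CPM (SD, n = 8). As the mean of sites the log2 value was -0.38 ± 0.15, with an unadjusted p of 0.0127 and an adjusted p of 1.00, and BIRC3 did not pass between sites (F = 2.09, adjusted p = 0.0603). Because all sites share the same 8 controls, equal signs at 15 sites are not 15 separate observations.

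ICAM1, the adhesion molecule that binds leukocyte integrins, had the narrowest range of site means among the 7 genes. They ran from 57.4 ± 6.08 CPM at LRMN to 41.8 ± 8.69 CPM at GRMI (SD, n = 4 each), a ratio of 1.37 between the highest and lowest site, with 49.2 ± 5.33 CPM in controls (SD, n = 8). At LRMN the libraries held from 48.5 to 62.1 CPM, and 3 of 4 lay above the highest control at 55.9 CPM. No site passed, and neither did the F between sites (1.67, adjusted p = 0.163).

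**Figure D3:**
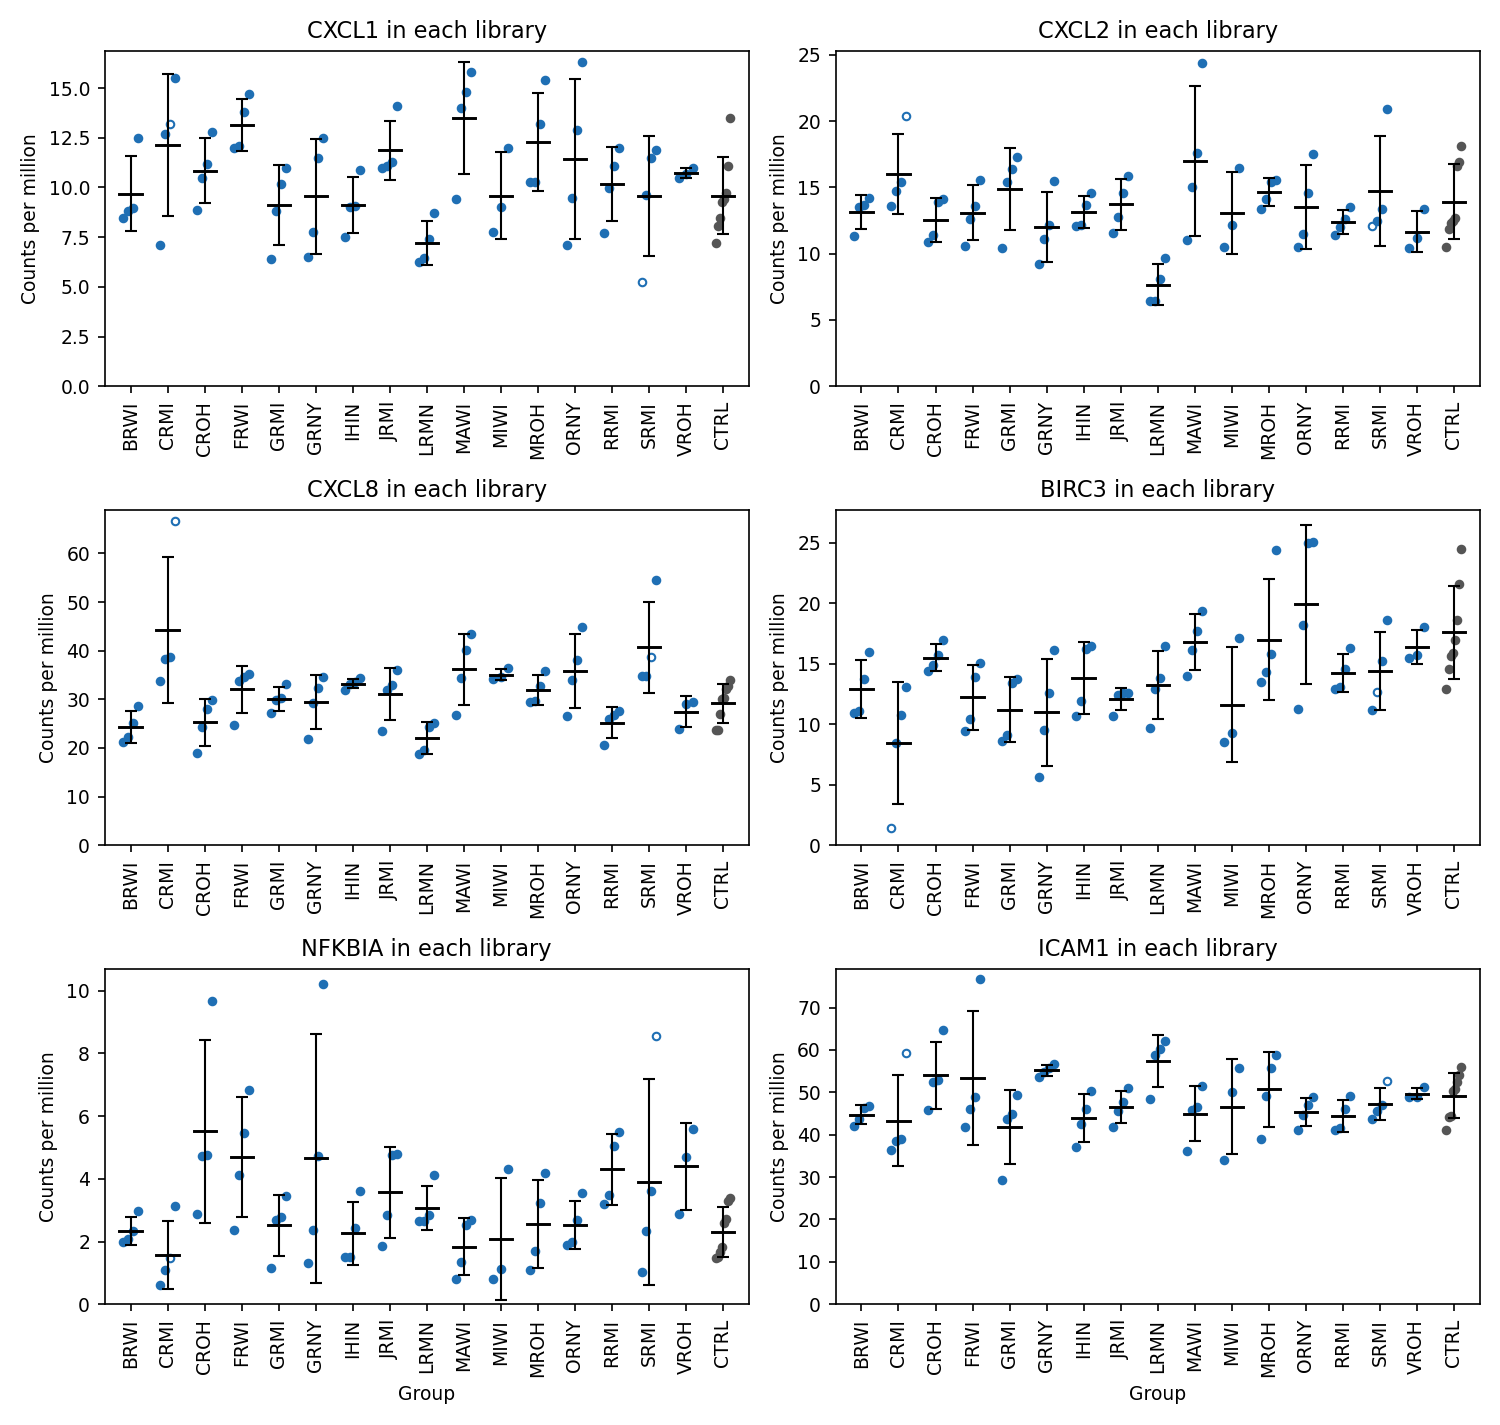
The other 6 tested genes in CPM in each library, with the 16 sites in alphabetical order and the 8 controls (grey) at the right; bars give the mean and SD, and open circles are the libraries CRMI 1 and SRMI 3. CXCL2 at LRMN lies below all controls, CXCL8 at CRMI and BIRC3 at CRMI are pulled by the open circle of CRMI 1, and NFKBIA spreads widely within CROH and GRNY.

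Between the 16 sites, 4 of the 7 genes were called (CCL20, CXCL8, CXCL2 and NFKBIA), while 37.8% of all features were. Without CRMI 1 and SRMI 3 as well as VROH 2, all 7 were called, where the percentage over all features was 49.8, with F values of 2.15 for CXCL1, 2.34 for BIRC3 and 2.37 for ICAM1. In that fit 8 gene-site tests were called higher and 3 lower, with percentages over all features of 1.89 and 2.20, and CCL20 was the 1 gene called at the mean of sites, where 0.174% of features were. It called CCL20 (0.29, adjusted p = 0.0405) and BIRC3 at GRNY, where 9.17% of features were called, and CXCL8 at LRMN, where 17.5% were. At CRMI, where 8.01% of features were called in that fit and 7.32% in the fit to 70 libraries, CXCL8 (0.34, adjusted p = 0.156) and BIRC3 (-0.70, adjusted p = 0.0620) were not. NFKBIA stayed called at CROH, where 10.3% of features were. The median log2 change of the 7 genes at the mean of sites was 0.09, against -0.01 for all features.

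CXCL8 and CCL20 took opposite orders over the 16 sites. On log2 CPM site means their Pearson r was -0.79 and their Spearman rho -0.84, with r = -0.81 without the 2 sites farthest out in CXCL8 and -0.82 without VROH 2, CRMI 1 and SRMI 3. Within groups, after group means were removed, r was -0.40 over 70 libraries. CXCL8 and CXCL2 had an r of 0.72 (rho 0.69), and CCL20 and NFKBIA had an r of 0.74 (rho 0.68). The r of 0.66 between CXCL1 and CXCL2 fell to 0.17 without the 2 farthest sites. These are descriptions of 16 points, with no test: the points share the cell pool, the assay and the library totals by which each value was scaled, and 21 pairs of genes were looked at.

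**Figure D4:**
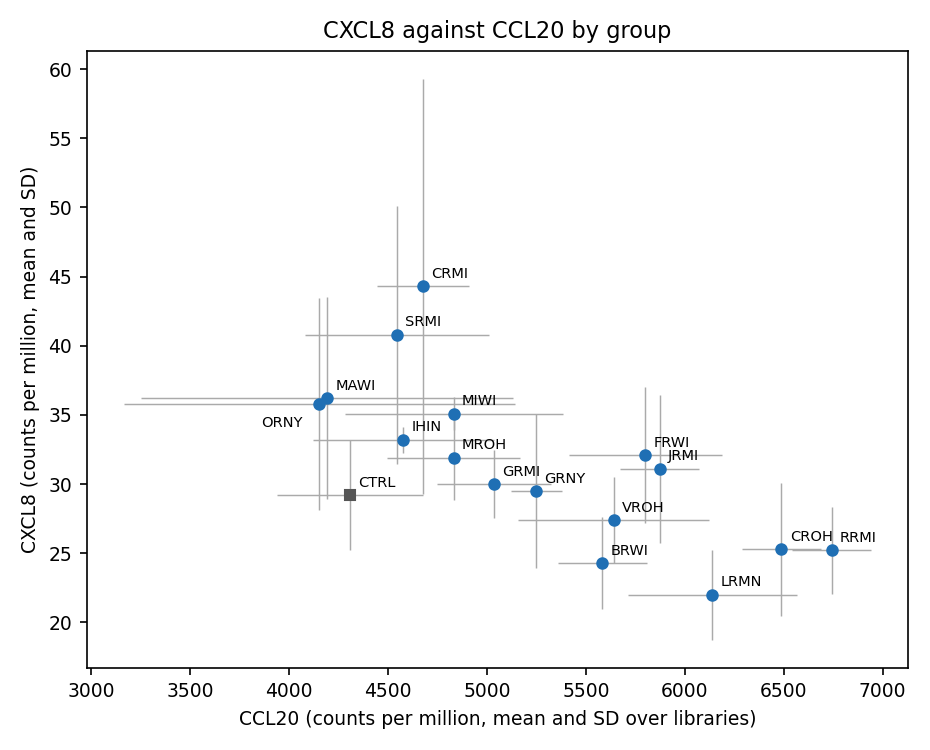
Mean CXCL8 (vertical, CPM) against mean CCL20 (horizontal, CPM) for the 16 sites (circles) and the controls (square), with SD bars over libraries. LRMN, RRMI and CROH lie at the lower right and CRMI and SRMI at the upper left, while the controls lie below the sites of similar CCL20 level.

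Depth moved with some of the genes. Over site means, r with the log2 library total was 0.60 for BIRC3, 0.55 for NFKBIA and 0.51 for ICAM1, and it was -0.41 for CXCL2, -0.28 for CXCL8, 0.19 for CCL20 and -0.02 for CXCL1. Within groups r was 0.51 for ICAM1 and between -0.12 and 0.26 for the other 6 genes. The sites lay below the controls in depth, and the part of depth in the results was not tested.

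The features whose 17 group means were most like each gene, by Pearson r of log2 CPM, were named by rule. Among those of CCL20 was KLB, with r = 0.92. For CXCL8 the features were LOC107986383 (0.91) and CLSPN (0.90), and for CXCL2 C2orf88 (0.86) and PSMC3IP (0.85). NFKBIA was most like FRAT2 (0.93) and HYAL1 (0.92), BIRC3 was most like EDA2R (0.91) and ARSA (0.87), values that were 0.66 and 0.77 without CRMI 1 and SRMI 3, and CXCL1 was most like KIFC1 and C11orf1 (0.71 each). Among those of ICAM1 was IL18BP (0.88). None of these features was itself among the 9 genes.

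The rest of the pathway was followed with 87 genes in 4 lists. Of these, 55 were tested and 21 were called between sites (38.2%), close to the 37.8% of all features. Against controls, 4 of 880 gene-site tests were called higher (0.455%) and 7 lower (0.795%), both under the shares of all features, 0.941% and 0.988%. Without VROH 2, CRMI 1 and SRMI 3 the order was the other way: 24 were called higher (2.73%) and 23 lower (2.61%), where the shares of all features were 1.89% and 2.20%, and 30 of the 55 were called between sites (54.5%, with 49.8% of all features). Leaving out CRMI 1 alone gave 32 calls in place of 11. At the mean of sites edgeR and DESeq2 called 0 of the 55, with 3 at an unadjusted p under 0.05 in edgeR and 2 in DESeq2.

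Among 22 other chemokines and cytokines, 7 were tested, and 3 were called between sites (42.9%, with 37.8% of all features). CXCL16, a membrane-bound chemokine, was higher at LRMN, with 9.84 ± 1.48 CPM (SD, n = 4) and 6.27 ± 1.73 CPM in controls (SD, n = 8), a log2 change of 0.65 ± 0.21 (edgeR adjusted p = 0.0377). That call was lost in 7 of 12 fits with a library left out. JRMI, at 9.98 ± 0.693 CPM, had a log2 value of 0.67 that did not pass (adjusted p = 0.114). It passed without VROH 2, CRMI 1 and SRMI 3 (0.67, adjusted p = 0.0420). CCL15 (F = 3.43) and IL32 (F = 2.97) were called between sites with no site passing, although IL32 was not called with all 71 libraries. CX3CL1, at 746 ± 83.7 CPM in controls, did not pass between sites (adjusted p = 0.0729). Without VROH 2, CRMI 1 and SRMI 3 it was called there (edgeR adjusted p = 9.05e-07), higher at BRWI, CRMI, GRMI and RRMI and lower at GRNY. The list then had 7 calls higher (6.25%, with 1.89% of all features) and 1 lower (0.893%, with 2.20%). The interleukin genes IL6, IL1A and IL1B had 1, 1 and 17 counts in all 70 libraries together, and CXCL10 had 0, so no change in them was detectable at this depth.

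Among 14 receptors and adaptors, 10 were tested and 4 called between sites (40.0%, with 37.8% of all features). These were IL1RAP (F = 6.19), the partner chain of the interleukin 1 receptor, the kinase IRAK2 (5.13), the adaptor MYD88 (2.94) and LTBR (2.36), the lymphotoxin beta receptor. IL1RAP ranged from a log2 value of -0.76 at IHIN to 0.65 at LRMN, none of which passed. Without CRMI 1 and SRMI 3 it was called higher at LRMN (0.65, adjusted p = 0.0184) and lower at CRMI (-1.11, 0.0110) and SRMI (-1.13, 0.0126). In that fit IRAK2 was called higher at CROH and GRNY and lower at CRMI, and LTBR higher at MAWI and ORNY and lower at GRNY. The list then had 6 calls higher (3.75%, with 1.89% of all features) and 4 lower (2.50%, with 2.20%). Between sites 6 of its 10 tested genes were called there (60.0%, with 49.8% of all features). MYD88 was higher at SRMI by 1.25 ± 0.24 (adjusted p = 0.00104), a call that ended without SRMI 3 (0.53, adjusted p = 0.342). The MYD88 call between sites was also lost without SRMI 3 (F = 1.77, adjusted p = 0.125). That of LTBR was lost in 5 of 70 fits with a library left out. The CXCL8 receptors CXCR1 and CXCR2 had 1 and 4 counts in all. Of 23 core genes and regulators of NF-kB, 20 were tested and 4 called between sites, a share below the 37.8% of all features. Without VROH 2, CRMI 1 and SRMI 3, 10 of these 20 genes were called there, a share close to the 49.8% of all features.

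The 4 core genes called in the fit to 70 libraries were the scaffold CARD10 (F = 6.78), the coactivator BCL3 (3.11), the kinase subunit IKBKG (2.81) and the regulator NFKBIZ (2.38). BCL3 passed at no site, but without CRMI 1 and SRMI 3 it was called higher at CROH (0.60, adjusted p = 0.0141) and LRMN (0.46, 0.0467). CARD10 was higher at LRMN, with 607 ± 60.9 CPM and 456 ± 42.5 CPM in controls, a log2 change of 0.41 ± 0.11 (edgeR adjusted p = 0.00787) that did not pass without LRMN 2 (adjusted p = 0.0974). OTULIN, a deubiquitinase and the other call of the list, was higher there by 0.68 (adjusted p = 0.0341), and this was lost in 5 of 12 fits with a library left out. NFKB1 and NFKB2, which encode subunits of the factor itself, had F values of 0.507 and 0.432 and did not pass. IKBKG has a near-identical partial copy in the genome, so its reads are uncertain.

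Of 28 other NF-kB target genes, 18 were tested and 10 called between sites (55.6%, with 37.8% of all features), and all 7 of their calls against controls were lower (2.43% of 288 tests, with 0.988% of all features). Without CRMI 1 and SRMI 3 the direction was no longer shared: 6 calls were higher (2.08%, with 1.89% of all features) and 17 lower (5.90%, with 2.20%). Complement C3, made in bulk by liver cells, was lower at ORNY, with 777 ± 121 CPM (SD, n = 4) and 1097 ± 85.7 CPM in controls (SD, n = 8), a log2 change of -0.50 ± 0.11 (edgeR adjusted p = 0.00791). It was also lower at MAWI (-0.41, adjusted p = 0.0227) and CRMI (-0.37, adjusted p = 0.0193), and its F between sites was 12.4 (adjusted p = 6.37e-11). Without CRMI 1 and SRMI 3 it was also called lower at SRMI (-0.47, adjusted p = 0.0115) and higher at CROH (0.32, 0.0184) and LRMN (0.30, 0.0149). MAWI and ORNY were the sites with the lowest CCL20 means. The C3 call at ORNY was lost without ORNY 1 or ORNY 3, that at MAWI in 5 of 12 fits and that at CRMI in 3 of 12, and none was called with all 71 libraries.

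The other calls lay at 3 sites. At CRMI the transcription factor JUNB was lower by 1.13 ± 0.27 on the log2 scale (adjusted p = 0.00511) and the stress gene GADD45B by 1.00 (adjusted p = 4.73e-04), and both held without CRMI 1, with log2 changes of -0.75 and -0.77. At MAWI the epithelial factor ELF3 was lower by 0.73 (adjusted p = 0.0437), lost in 6 of 12 fits. At RRMI, where CCL20 was highest, the transcription factor IRF1 was lower by 0.45 (adjusted p = 0.0340), lost in 8 of 12 fits. KLF6 (F = 7.65), ELF3 (7.16) and JUNB (7.16) differed between sites. Without CRMI 1 and SRMI 3, ELF3 was called higher at GRNY (0.52, edgeR adjusted p = 0.0435) and lower at MAWI (-0.72, 0.0178). The log2 values of KLF6 ran from -0.58 at MAWI to 0.68 at GRNY, and none passed in the fit to 70 libraries. With nearly the same values, KLF6 was called at GRNY (adjusted p = 0.00625), CROH (0.0271) and MAWI (0.0354) without CRMI 1 and SRMI 3, and JUNB was then called higher at CROH (0.62, 0.0182) and lower at MAWI and ORNY as well as CRMI.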

How the data were processed

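The authors deposited 1 table of estimated counts per gene, which its name describes as normalized. The submitters' processing notes name Salmon and GRCh38, and no version, probe list or scaling step. Among values below 20, 95.7% fell within 0.1 of a whole number, and they were therefore rounded and treated as counts. Libraries are numbered as in the table. Symbols after RAI14, RELA, TNF and TNFAIP3 among them, were not analysed here.

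Counts of 70 libraries, without VROH 2 for its depth, were fitted with edgeR 4.0.16 (R 4.3.3, limma 3.58.1) by its quasi-likelihood F test, using TMM factors and features kept by filterByExpr (minimum count 10), with 1 mean per group and 53 residual degrees of freedom. Each site and the mean of sites were compared with the controls. A joint F test compared the sites among themselves. CPM are counts over TMM-adjusted totals. Each comparison was adjusted by Benjamini-Hochberg over its features. Errors are SE for log2 changes and SD for CPM.

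The 9 genes, the 4 lists and the tests were chosen with earlier results of these data known. Named beside the 9 genes are up to 4 genes per list with the smallest p between sites among those called, and the 2 features most like each tested gene, some of which are not reported here. CCR6, CXCR1, CXCR2, CX3CL1, IL6, IL1A, IL1B, CXCL10, NFKB1, NFKB2, OTULIN, GADD45B and IRF1 were added after their values were seen. Motifs were searched in RefSeq promoters, and transcripts aligned with biopython 1.88. Alternatives were DESeq2 1.42.0, RLE factors, library totals alone, no filter, a replicate block, each site with the controls alone, all 71 libraries, leaving out VROH 2, CRMI 1 and SRMI 3, and leaving out each library in turn.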

Additional observations from a re-analysis of the deposited data

Results flagged for a closer look

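Of 105 gene-group sets of 4 to 8 libraries, 8 held a library whose gap to the next exceeded Dixon's 95% critical value for the range of the set, where chance gives about 1 in 20. CXCL1 reached 12.5 CPM in BRWI 2, against 8.48 to 8.96 CPM in the other libraries of the site, and 14.1 CPM in JRMI 3, where the next highest was 11.3 CPM. CXCL2 was 20.9 CPM in SRMI 1, with 12.1 to 13.4 CPM in the rest. CXCL8 was 66.6 CPM in CRMI 1, with 33.7 to 38.7 CPM in the rest, and ICAM1 was 59.3 CPM in that same library, with 36.3 to 39.1 CPM in the rest. CXCL8 was lowest in FRWI 4, at 24.8 CPM, against 33.8 to 35.2 CPM. BIRC3 was lowest in JRMI 4, at 10.7 CPM, against 12.4 to 12.6 CPM, and NFKBIA was highest in LRMN 2, at 4.11 CPM, against 2.64 to 2.83 CPM.

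By edgeR's F test (adjusted p under 0.05), the effects of the 16 sites differed for 4 of the 7 genes tested. That is 57.1%, with 37.8% over all features. The 15 other pathway genes listed here were picked from those called by this same test, so their passing was fixed in advance. Of the 55 pathway genes tested, 21 were called (38.2%). F was 7.87 for CCL20, 4.98 for CXCL8, 2.96 for CXCL2 and 2.18 for NFKBIA. It was 4.94 for CXCL16, 3.43 for CCL15 and 2.97 for IL32 among other chemokines and cytokines. Receptors and adaptors had 6.19 for IL1RAP, 5.13 for IRAK2, 2.94 for MYD88 (1.77 and not called without SRMI 3) and 2.36 for LTBR. Core genes had 6.78 for CARD10, 3.11 for BCL3, 2.81 for IKBKG and 2.38 for NFKBIZ. Other targets had 12.4 for C3, 7.65 for KLF6, 7.16 for JUNB and 7.16 for ELF3.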

How the results depend on the processing

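As reported, the 9 genes had 10 calls at sites (8 higher, 2 lower), 1 at the mean of sites and 4 between sites, and the pathway genes had 11 at sites and 21 between sites. With all 71 libraries these were 3, 1 higher, 0 at the mean of sites and 3 for pathway genes at sites. Without VROH 2, CRMI 1 and SRMI 3, all 7 tested genes were called between sites and 47 pathway gene-site tests were called. The share of all gene-site tests called was 1.93% as reported, 0.883% with all 71 libraries and 4.09% without the 3. Library totals alone gave 7 pathway calls at sites (1.97% of all tests called), each site with the controls alone 46 (3.86%), and DESeq2 19 (3.09%). With no filter on low counts 5 calls at sites were higher (0.653% of all gene-site tests called in either direction), and at the mean of sites edgeR made 0 calls, where 2 genes had an unadjusted p under 0.05. RLE factors moved no call of the 53 single values followed. Leaving out each library in turn gave 0 to 1 calls at the mean of sites and 8 to 32 pathway calls at sites, the highest without CRMI 1 (2.85% of all tests). For calls that changed, the cause was not tested.

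Replicate numbers were entered as a block, in a fit without GRMI 1 and the 3 MIWI libraries, whose columns carry no matching number. Only controls carry the numbers 5 to 8, so CTRL 5, CTRL 6, CTRL 7 and CTRL 8 each had a block term of their own. The control level of the block fit thus came from CTRL 1 to CTRL 4 alone, and the part of this in the calls below was not tested. By the median r, libraries of equal number deviated together hardly more than those of unequal number (0.031, against 0.013). Of the pairs of equal number 37.8% had an r over 0.1, a share not taken for unequal numbers. Of 62 libraries, 15 correlated best with their own number. The block fit gave 4 calls at sites (3 higher, 1 lower), 0 at the mean of sites, with 1 at an unadjusted p under 0.05, and 3 pathway calls at sites, where 0.879% of all gene-site tests and 2 features at the mean of sites were called. The 4 were CCL20 at CROH, LRMN and RRMI and CXCL2 at LRMN, so CCL20 at JRMI was not among them (0.37, adjusted p = 0.199), and the 3 were GADD45B at CRMI, C3 at ORNY and MYD88 at SRMI, without JUNB at CRMI (-1.08, adjusted p = 0.0531). The ICAM1 value at the mean of sites was 0.02 in place of -0.04.

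Depth limits NFKBIA, with as few as 2 counts in a library, and CXCL3 and CXCL5 most.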
